A study of Mus musculus with 8 samples.

Results

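Alveolar macrophages are the phagocytes of the air spaces, and the cells described here are those that the study's table of cells labels alveolar macrophage. They were taken by that label and joined to the count table by cell name, and numbered 2494 of 20778 cells (12%). The cells came from orthotopic left lung grafts of 8 male mice, taken 1 month after transplantation, and no mouse received immunosuppression. In the 5 B6B6 mice, the non-rejected controls, donor and recipient were both C57BL/6 (B6). In the 3 HLAB6 mice the donor was of the HLA line, C57BL/6 mice with a human HLA-A2.1 transgene, and the recipient was B6, a combination that leads to the chronic rejection called bronchiolitis obliterans syndrome (BOS), which was in its progression phase at this time. Cells of a graft can come from the donor or from the recipient, and the table of cells does not give their origin. Each mouse gave 1 library, with 10000 cells loaded for droplet sequencing of transcript 3′ ends, in which a unique molecular identifier (UMI) counts single molecules.

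As background, resident alveolar macrophages clear inhaled particles and surfactant lipid and depend on the transcription factor PPARγ, encoded by Pparg. They are known for high Chil3 (a chitinase-like lectin), Ear2 (a ribonuclease of the eosinophil-associated family), Siglecf (a sialic acid receptor), Marco (a scavenger receptor) and Mrc1 (the mannose receptor). Macrophages of the lung interstitium and macrophages newly made from blood monocytes carry the complement C1q genes, Ms4a7 and Apoe instead, and monocyte-derived cells can take up residence in the air space after injury. MHC class II molecules on such cells present peptides to CD4+ T cells, and interferon-γ is the best known inducer of their genes.

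The label held cells of 2 kinds. A labelled cell was called an alveolar-list cell when it had at least 3 UMIs of 12 alveolar genes (Chil3, Ear1, Ear2, Siglecf, Marco, Fabp1, Krt79, Cidec, Plet1, Atp6v0d2, Lpl and Car4) and more of them than of 6 other macrophage genes (among them C1qa, C1qb, C1qc, Ms4a7 and Cx3cr1). It was called a C1q-list cell in the reverse case and was left unassigned otherwise. There were 1494 alveolar-list cells, 775 C1q-list cells and 225 unassigned cells. The split used these 18 genes, so their levels in the 2 kinds describe the split: summed over all mice, Chil3 stood at 6402 CPM (a gene's share of all UMIs, scaled to a fixed total) in alveolar-list cells and at 50 in C1q-list cells, and C1qa at 15.5 and 3062. Mrc1, which the split did not use, stood at 509 and 64.3 CPM, Apoe (the lipid carrier apolipoprotein E) at 2125 and 24365, and Itgax (the integrin CD11c) at 387 and 206. All 5 markers were thus found at their higher level in alveolar-list cells, with Ear2 at 1980, Siglecf at 47.0 and Marco at 142 CPM, against 28.7, 4.59 and 37.4 CPM in C1q-list cells. Of all labelled cells, 342 lay within 3 UMIs of the border between the kinds. The median depth was 2781 UMIs in alveolar-list cells, 4782 in C1q-list cells and 568 in unassigned cells. Fibroblast Col1a1 was at 0 in all 3. Of the dendritic cell markers Flt3 stood at 0.207 CPM in alveolar-list and 2.42 CPM in C1q-list cells, Clec9a at 2.07 and 10.1, Wdfy4 at 65.2 and 21.3 and Naaa at 328 and 110 CPM.

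**Figure D1:**
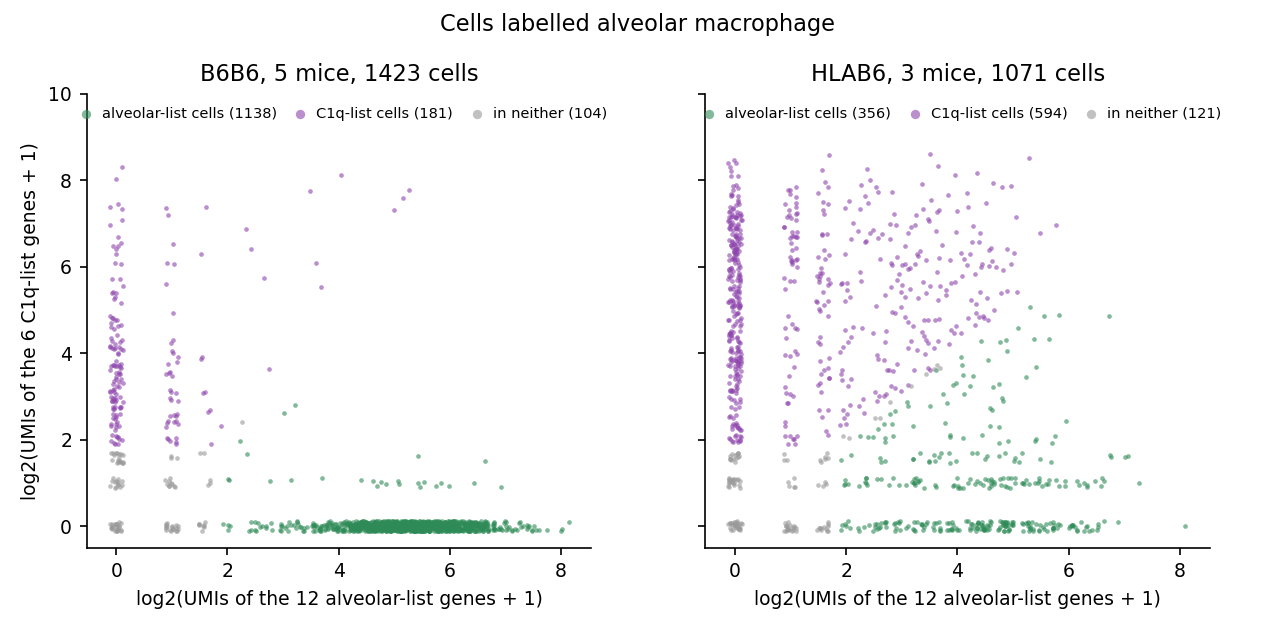
Each point is 1 labelled cell, placed by its UMIs of the 12 alveolar-list genes (x axis, log2 of UMIs + 1, with a small random shift) and of the 6 C1q-list genes (y axis, the same scale), with 1423 B6B6 cells on the left and 1071 HLAB6 cells on the right. Most B6B6 points lie along the x axis. Of the HLAB6 points 594 are C1q-list cells, 356 of them from replicate 2. Per mouse, C1q-list cells are 43.6%, 69.3% and 40.0% of the labelled cells of HLAB6 replicates 1 to 3. Many HLAB6 alveolar-list cells also hold UMIs of the C1q list.

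Libraries that share cells bear on these results. Of the labelled cells, 396 (15.9%) had a barcode that was also present in another mouse's library. These were 32 of 37 C1q-list cells in B6B6 replicate 1, 85 of 99 in B6B6 replicate 2, 12 of 32 in B6B6 replicate 3 and 114 of 356 in HLAB6 replicate 2, but only 58 of 1494 alveolar-list cells. In B6B6 replicates 1 and 2 the shared C1q-list cells had a median of 533 and 566 UMIs, against 12176.5 in HLAB6 replicate 2, with which B6B6 replicate 2 shared 128 labelled barcodes. Values without all shared cells, or with the deepest cell of a shared barcode kept alone, if its UMIs were 5 times those of the next or more, are given beside the results they move. A doublet caller marked 23 labelled cells. In all labelled cells together, HLAB6 replicate 2 had the highest median depth at 7144 UMIs per cell and B6B6 replicate 2 the lowest at 803, and the groups did not differ in it beyond their spread (mean 2333 ± 1146 in B6B6, SD, n = 5, and 3550 ± 3228 in HLAB6, SD, n = 3, p = 0.536, two-sided exact permutation test).

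The first question was whether rejecting grafts held a different amount and mix of these cells. Cells labelled alveolar macrophage made up 16.8%, 21.0%, 7.81%, 16.7% and 12.1% of all cells in B6B6 replicates 1 to 5 and 6.53%, 15.6% and 10.4% in HLAB6 replicates 1 to 3. The groups overlapped and the difference of means, 4.03 percentage points lower in HLAB6 as a count of cells in these suspensions, was within their spread (p = 0.286, two-sided exact permutation test). The 2 kinds of cell under the label did not share this pattern.

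Alveolar-list cells made up 10.1%, 9.56%, 6.08%, 16.3% and 11.3% of all cells in the B6B6 mice and 3.35%, 2.80% and 3.61% in the HLAB6 mice. Every HLAB6 mouse lay below every B6B6 mouse, with means of 3.25% ± 0.416 (SD, n = 3) and 10.7% ± 3.69 (SD, n = 5). The exact permutation test gave p = 0.0357, the smallest that 5 mice against 3 allow. Among cells other than B and T cells the means were 5.20% and 18.8%, again without overlap (p = 0.0357, exact permutation test). Shares of cells add up to a whole, so fewer alveolar-list cells and more cells of other types cannot be told apart here. A cell still present could also leave this class through lower alveolar-list or higher C1q-list genes. Alveolar-list cells had per-mouse medians of 33.5 to 65.5 UMIs of their list in B6B6 and 13.5 to 33 in HLAB6. Of C1q-list cells, 27.3% to 50% held a UMI of the alveolar list in B6B6 and 45.7% to 59.6% in HLAB6. With the border at 1 UMI the alveolar-list shares were 6.24% to 16.3% in B6B6 and 3.22% to 4.82% in HLAB6. The part of such a move was not tested.

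C1q-list cells made up 23.3%, 34.9%, 16.8%, 1.61% and 1.90% of labelled cells in B6B6 replicates 1 to 5 and 43.6%, 69.3% and 40.0% in HLAB6 replicates 1 to 3. The HLAB6 mice were again all on one side of the B6B6 mice, with a mean of 50.9% ± 16.0 (SD, n = 3) against 15.7% ± 14.3 (SD, n = 5) and p = 0.0357 in the two-sided exact permutation test. With only the deepest cell of a shared barcode kept, the B6B6 mean was 7.14% and the HLAB6 mean 51.3%. Within the libraries linked by shared barcodes (B6B6 replicates 1 to 3 and HLAB6 replicate 2) the difference was 44.3 percentage points and within the others 40.0. An exact permutation test done within both sets gave p = 0.0417, the smallest that it allows. Among all cells, C1q-list cells made up 2.61% ± 3.03 (SD, n = 5) in B6B6 and 5.94% ± 4.27 (SD, n = 3) in HLAB6 mice, and these groups overlapped (p = 0.286, exact permutation test). The call of this last share depended on the shared cells, since with the deepest cell kept the means were 0.746% and 6.02% without overlap (p = 0.0357, exact permutation test).

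**Figure D2:**
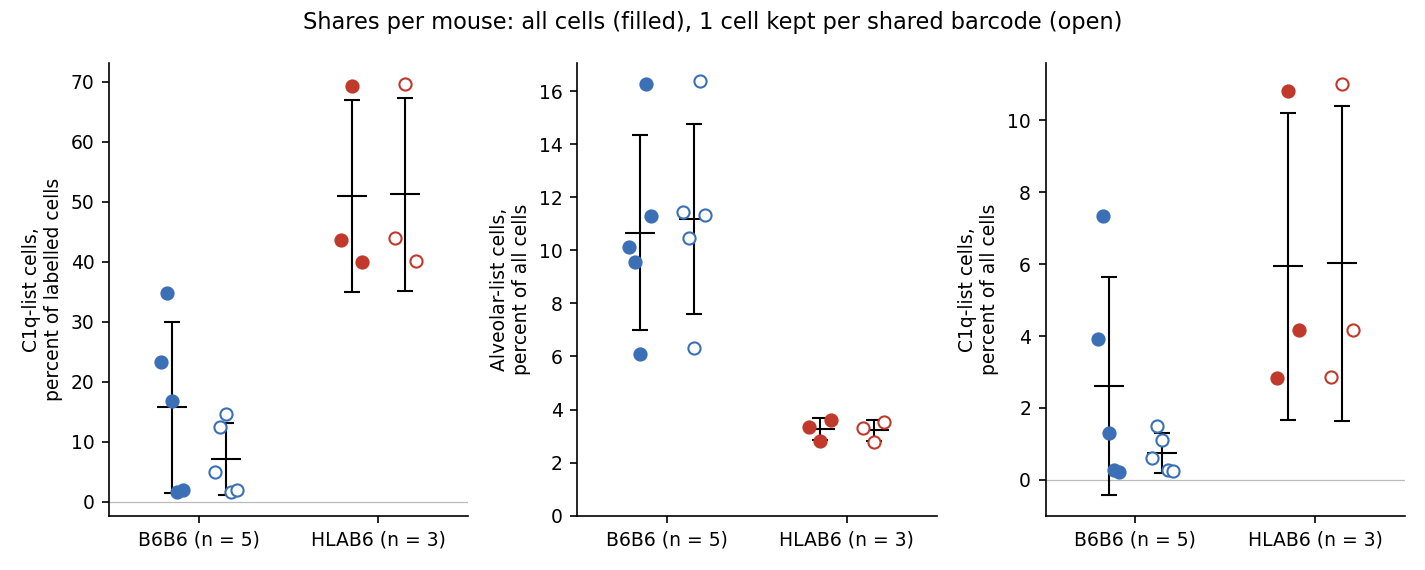
Each point is 1 mouse, and the panels give C1q-list cells as percent of labelled cells, alveolar-list cells as percent of all cells and C1q-list cells as percent of all cells. Filled points use all cells. Open points keep only the deepest cell of a shared barcode, and no cell of it if the deepest had under 5 times the UMIs of the next. Bars are the mean and SD over 5 B6B6 and 3 HLAB6 mice. The groups do not overlap in the first 2 panels, and in the last they separate only in the open points.

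Alveolar-list cells with UMIs of both lists were common in HLAB6 grafts. At least 1 UMI of the C1q list was present in 44.3%, 66.3% and 48.9% of the alveolar-list cells of HLAB6 replicates 1 to 3, and in 0% to 3.88% of those of the B6B6 mice. With every cell thinned to 1000 UMIs the shares were 19.4% to 33.3% and 0% to 1.72%. T cells gave 0.718% to 3.10% at the same depth in HLAB6 and 1.11% to 2.41% in B6B6 mice, but the list holds Cx3cr1, which some T cells express. C1qb alone, which T cells should lack, was found at this depth in 3.49% to 15.3% of alveolar-list cells and at most 0.783% of T cells in HLAB6 mice. In B6B6 mice C1qb was in 4 of 1138 alveolar-list cells, 3 of them in replicate 3 (1.07% at this depth), and in 0 of 2563 T cells. Unthinned, the median depth was 2223, 6166 and 4123 UMIs in HLAB6 alveolar-list cells, against 1519, 1928 and 1976 in their T cells. The doublet caller marked 1 of the HLAB6 alveolar-list cells.

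Gene levels were first compared over all labelled cells, summed per mouse. HLAB6 cells were lower in 11 of 20 genes of the alveolar identity list, and higher in 9 of 19 of the MHC class I list and 12 of 21 of the lipid- and scar-associated list, of which 1 was lower. Of 5798 genes tested by edgeR's quasi-likelihood test with Benjamini-Hochberg adjustment, 369 were higher (6.36%) and 343 lower (5.92%) in HLAB6, or 12.3% in all. None of the 20 alveolar identity genes was higher, and their median log2 fold change was -1.90 against -0.03 over all genes tested. Marco stood at 102, 194, 198, 197 and 219 CPM in B6B6 replicates 1 to 5 and at 27.8, 4.86 and 12 CPM in HLAB6 replicates 1 to 3. Every HLAB6 value of Marco lay under every B6B6 value, with a log2 fold change of -3.68 (SE 0.50, edgeR adjusted p = 0.0042). Car4, a membrane carbonic anhydrase, fell by 4.19 (SE 0.49) on the log2 scale with edgeR adjusted p = 0.0028, and Siglecf by 1.95 (SE 0.45) with 0.021, which was lost without B6B6 replicate 4 (and without HLAB6 replicate 1 or 2). Chil3 (-1.59, SE 0.57), Ear2 (-1.85, SE 0.64) and Mrc1 (-1.41, SE 0.44) did not pass the threshold, at edgeR adjusted p = 0.092, 0.081 and 0.059. HLAB6 replicate 2, the mouse with the highest share of C1q-list cells, had the lowest value of all 5 markers.

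Higher over the whole label were Mfge8, which bridges phagocytes to dying cells (log2 fold change 3.60, SE 0.50), Cadm1, a cell adhesion molecule (4.15, SE 0.67), Pdgfa, a growth factor for fibroblasts (3.53, SE 0.46), and Tnfsf13b, which encodes the B cell survival factor BAFF (3.42, SE 0.44). Their edgeR adjusted p were 0.0049, 0.0069, 0.0036 and 0.0036. Tnfsf13b stood at 0 to 4.12 CPM in the B6B6 mice and at 27.9 to 30 CPM in the HLAB6 mice, so its groups were far apart at low levels. Mfge8 stood at 11.2 to 92.7 CPM in B6B6 and at 293, 669 and 461 CPM in HLAB6 mice, again without overlap. Of the MHC class II list 2 of 7 tested genes passed over the whole label (6 with the deepest cell of a shared barcode kept), of the MHC class I list 9 of 19, of the interferon-γ list 9 of 15 and of the type I interferon list 3 of 13, all of them higher. The count over all genes rested on single mice: without HLAB6 replicate 2 it was 180, without B6B6 replicate 4 it was 273 and without B6B6 replicate 1 it was 388, in place of 712. Since the mix of the 2 kinds differed between the groups, the kinds were then taken one by one.

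Within alveolar-list cells, HLAB6 grafts showed higher Apoe, MHC class II and class I genes and genes of the state known from lipid-laden and scar-associated macrophages, and lower levels of 5 of 18 cell cycle genes and of single genes such as Acaa1b and Acot1. Of 4985 genes tested, 234 were higher (4.69%) and 111 lower (2.23%), or 6.92% in all, again by edgeR with Benjamini-Hochberg adjustment. Genes of the 2 split lists were not tested. Sums rested on 45 to 219 cells per HLAB6 mouse and 96 to 667 per B6B6 mouse, and on 170340 to 2158548 UMIs. Without HLAB6 replicate 2 the count was 172 in place of 345, without B6B6 replicate 4 it was 190 and without B6B6 replicate 5 it was 223. With the 180 HLAB6 and 26 B6B6 cells that held a UMI of the C1q list left out, 97 genes were higher and 32 lower of 4327 tested.

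Apoe (7:19696109-19699188 of GRCm38, minus strand) had the largest rise of the named genes in alveolar-list cells. It stood at 0, 136, 0, 0 and 2.42 CPM in B6B6 replicates 1 to 5 and at 5676, 13684 and 3357 CPM in HLAB6 replicates 1 to 3. The groups were separated by the whole range between 136 and 3357 CPM, and the log2 fold change was 8.33 (SE 1.21, edgeR adjusted p = 0.0016). A UMI of Apoe was found in 42.9% to 71.1% of alveolar-list cells of HLAB6 mice and in 0% to 3.88% of those of B6B6 mice, and at 1000 UMIs per cell in 40.7% to 68.1% and 0% to 0.867%. T cells of the same mice gave at most 2.99% at that depth and at most 50.9 CPM. In alveolar-list cells with no UMI of the C1q list Apoe was still higher, by 11.06 on the log2 scale (edgeR adjusted p = 8e-08). Over all B6B6 alveolar-list cells Apoe had 49 UMIs in 6 of 1138 cells. With a control level so near 0 the sizes of both fitted values are uncertain, and the larger one is not a stronger effect. The study's methods state that free RNA was removed with Apoe, H2-Aa, H2-Ab1, H2-Eb1 and Cd74 among the genes used to estimate it, and no source used here says if the deposited counts precede or follow this step, so its part in these 5 genes was not tested. The same holds for the hemoglobin genes, Scgb1a1 and Igkc, which were also among the genes used. If the counts follow this step, it could itself have lowered Apoe and H2-Ab1 in T cells. The T cell values of these 2 genes therefore cannot show how much free RNA was present. In B6B6 replicate 3 the 5 red cell markers summed to 0 CPM in alveolar-list cells and to 25346.5 CPM in C1q-list cells. Whether the removal was even between kinds of cell was not tested.

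Ass1, the argininosuccinate synthase of arginine synthesis, was next, at 0 CPM in 4 of the B6B6 mice, 2.27 in replicate 4, and 57.1, 381 and 96.6 in the HLAB6 mice. Its log2 fold change was 6.92 (SE 0.78) with edgeR adjusted p = 0.00030. Fgl2, a fibrinogen-like immune regulator (6.08, SE 0.67), Lat2, a signalling adaptor (5.74, SE 0.57), Cxcl16, a chemokine that is also a scavenger receptor (5.56, SE 0.82), C3ar1, the receptor of the complement fragment C3a (5.38, SE 0.58), Hpse, the enzyme heparanase (5.30, SE 0.73), and Il7r, a receptor chain for IL-7 and TSLP (5.07, SE 0.59), made up the rest of the 8 with the largest rise. Each of them was under 37 CPM in every B6B6 mouse and between 30.2 and 591 CPM in the HLAB6 mice. Their calls held when any 1 mouse was left out.

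The MHC class II genes rose together in alveolar-list cells. Of 6 tested members of the list 5 were higher and 0 lower, with a median log2 fold change of 2.86 against -0.01 over all tested genes, where 4.69% were higher. H2-Ab1, the β chain of I-A (17:34257689-34269419 of GRCm38, plus strand), stood at 285, 701, 677, 266 and 152 CPM in B6B6 replicates 1 to 5 and at 1863, 6756 and 1678 CPM in HLAB6 replicates 1 to 3. The lowest HLAB6 mouse was above the highest B6B6 mouse, and the log2 fold change was 3.05 (SE 0.51, edgeR adjusted p = 0.0035). The α chain H2-Aa rose by 2.78 (SE 0.47) with edgeR adjusted p = 0.0035, the I-E β chain H2-Eb1 by 3.35 (SE 0.69) with 0.0098, and the invariant chain Cd74 by 2.93 (SE 0.51) with 0.0039. H2-DMb1, a chain of the peptide exchange factor, rose less, from 164 to 270 CPM in the B6B6 mice to 402, 469 and 495 CPM in the HLAB6 mice (log2 fold change 1.06, SE 0.20, edgeR adjusted p = 0.0062). H2-DMb1 is not among the genes named for the removal of free RNA. All 5 calls held when any 1 mouse was left out and in cells with no UMI of the C1q list, where H2-DMb1 was just inside the threshold (edgeR adjusted p = 0.0498). A UMI of H2-Ab1 was found at 1000 UMIs per cell in 59.3% to 88.0% of the alveolar-list cells of HLAB6 mice, in 8.41% to 28.6% of those of B6B6 mice and in at most 1.96% of T cells, where H2-Ab1 did not pass 36.1 CPM in any mouse.

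The promoters of 3 of these genes are shown because their genes moved together and these share a short motif. They are the 160 bases before the annotated start in RefSeq on GRCm38.p6, written 5′ to 3′ on the strand of the gene, H2-Aa at chr17:34287824-34287983 on the minus strand, H2-Eb1 at chr17:34305707-34305866 and H2-DMb1 at chr17:34153031-34153190 on the plus strand. The capitals mark TGATTGG, the inverted CCAAT box known as the Y box of MHC class II promoters.
H2-Aa: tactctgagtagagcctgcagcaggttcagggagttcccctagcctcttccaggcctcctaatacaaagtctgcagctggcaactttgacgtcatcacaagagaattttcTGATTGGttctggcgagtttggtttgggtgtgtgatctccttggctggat
H2-Eb1: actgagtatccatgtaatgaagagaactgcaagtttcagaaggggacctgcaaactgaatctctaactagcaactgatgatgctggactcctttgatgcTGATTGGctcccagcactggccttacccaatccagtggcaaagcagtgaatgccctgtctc
H2-DMb1: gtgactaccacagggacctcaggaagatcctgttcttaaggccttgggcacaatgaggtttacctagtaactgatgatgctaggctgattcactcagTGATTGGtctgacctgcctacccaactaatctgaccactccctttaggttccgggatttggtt
The motif began 50 bases before the start in H2-Aa, 61 in H2-Eb1 and 63 in H2-DMb1. These are RefSeq starts, and GENCODE vM21 begins H2-DMb1 at 34153072, inside the printed stretch and upstream of the motif. Searched on both strands in the 250 bases before the start, TGATTGG was present in 6 of the 7 promoters of the MHC class II list found in the table, in 8 of 17 of the MHC class I list and in 2265 of all 27025 genes (8.38%). These matches describe the sequences and say nothing of binding in these cells.

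MHC class I presentation was higher as well, with 13 of 18 tested genes higher and 0 lower and a median log2 fold change of 1.49. H2-Q6, a class Ib heavy chain, stood at 3.61 to 26.4 CPM in B6B6 and at 79.6, 171 and 109 CPM in HLAB6 mice, which did not overlap (log2 fold change 3.27, SE 0.40, edgeR adjusted p = 0.00039). H2-D1, a classical heavy chain, rose by 2.13 (SE 0.37) with edgeR adjusted p = 0.0039, and the peptide transporter Tap1 by 2.36 (SE 0.41) with 0.0039. H2-Q4, H2-Q6, H2-Q7, H2-T22 and H2-T23 are related class I genes. Reads that match more than 1 of them may be lost or misplaced, so their single values are uncertain. Of the interferon-γ list 4 of 9 tested genes were higher (among them Ifi47, Irgm1 and Ifngr2) and of the type I interferon list 4 of 7 (Oasl2, Rtp4, Zbp1 and Bst2), with 0 lower in either. Of the genes named here Ifi47, Irgm1, Ifngr2, Zbp1 and Bst2 lost their call without HLAB6 replicate 2, and Irgm1, Ifngr2, Zbp1 and Bst2 also without B6B6 replicate 4. In cells with no UMI of the C1q list 9 of the class I list, 1 of the interferon-γ list and 2 of the type I interferon list were higher. Oasl2, a relative of the 2′-5′ oligoadenylate synthases, kept its call in each case (log2 fold change 4.72, SE 0.73, edgeR adjusted p = 0.0022), at 0 to 5.27 CPM in B6B6 and 29.4 to 68.5 CPM in HLAB6 mice.

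Of 18 tested genes of the lipid- and scar-associated list 10 were higher and 0 lower, with a median log2 fold change of 1.63. Spp1 (osteopontin, a secreted matrix protein and cytokine) stood at 663, 749, 517, 860 and 673 CPM in B6B6 replicates 1 to 5 and at 2410, 5839 and 3254 CPM in HLAB6 replicates 1 to 3. Its B6B6 values lay close together and all under the HLAB6 values (log2 fold change 2.47, SE 0.26, edgeR adjusted p = 0.00028). Trem2, a lipid receptor, stood at 93.7 to 184 CPM and at 478, 1135 and 592 CPM (2.49, SE 0.30, edgeR adjusted p = 0.00037). Mmp12, the macrophage elastase, stood at 7.26 to 39.7 CPM and at 279, 583 and 157 CPM (4.23, SE 0.44, edgeR adjusted p = 0.00028). Neither Trem2 nor Mmp12 overlapped between the groups. Gpnmb, a lysosomal glycoprotein, was at 123 to 255 CPM in the B6B6 mice and at 1276, 5610 and 459 CPM in the HLAB6 mice (3.71, SE 0.56, edgeR adjusted p = 0.0019), with replicate 2 far above the other two. The protease Ctsb rose by 2.23 (SE 0.34) and the protease inhibitor Timp2 by 1.82 (SE 0.25), with edgeR adjusted p = 0.0019 and 0.0010, and Apoe, Lgmn, Fabp5 and Cd63 were the other higher members. Spp1, Trem2, Mmp12, Gpnmb, Ctsb and Timp2 kept their calls in each mouse left out and in the cells with no UMI of the C1q list.

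Among scavenger, Fc receptor and complement genes 10 of 21 tested were higher and 0 lower (4 higher in cells with no UMI of the C1q list). They included the complement genes C3, at 19.4 to 52.7 CPM in B6B6 and 71.0, 336 and 90.6 CPM in HLAB6 mice (log2 fold change 2.42, SE 0.46, edgeR adjusted p = 0.0063), and Cfb, the factor B of the alternative pathway (3.20, SE 0.58, edgeR adjusted p = 0.0054). Of the chemokine list 3 of 9 were higher, Cxcl16 and Ccl9 among them. Among the inflammatory cytokine genes Casp1 was higher and Il18, which encodes a substrate of caspase-1, was lower (-1.50, SE 0.40, edgeR adjusted p = 0.040), and the Il18 call was lost when any 1 B6B6 mouse was left out. Of the stress and early response list Ddit3, the ER stress factor CHOP, rose by 2.55 (SE 0.31) with edgeR adjusted p = 0.00037, Atf3 was also higher, and Fosb and Dusp1 were lower among 19 tested. The calls of Casp1, Atf3 and Dusp1, like that of Cd63, were lost without HLAB6 replicate 2 or B6B6 replicate 4, among others.

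The largest falls in alveolar-list cells were in Acaa1b, the peroxisomal thiolase of fatty acid oxidation, and Acot1, an acyl-CoA thioesterase. Acaa1b stood at 148, 51.1, 47.4, 79.1 and 102 CPM in the B6B6 mice and at 12.1, 2.14 and 6.04 CPM in the HLAB6 mice. The groups did not overlap (log2 fold change -3.47, SE 0.55, edgeR adjusted p = 0.0026), nor did they in Acot1 (-3.39, SE 0.45, 0.00086 by edgeR). Gal, the neuropeptide galanin, fell by 3.06 (SE 0.61) on the log2 scale, Perp, an apoptosis effector of p53, by 2.89 (SE 0.45) and Serpinb1a, an inhibitor of neutrophil proteases, by 2.73 (SE 0.55), with edgeR adjusted p = 0.0086, 0.0022 and 0.0094. Krt19, a keratin on the alveolar identity list, fell by 2.46 (SE 0.58, edgeR adjusted p = 0.022), and this call was lost without B6B6 replicate 1, 4 or 5. Of the 8 tested genes of that list 2 were lower (Krt19 and Cd2), 1 was higher (Fabp4) and 5 did not pass. Over all tested genes 2.23% were lower and 4.69% higher. Of the wider lipid and sterol list 4 of 25 were higher (Fabp5, Npc2, Fabp4 and Soat1) and 1 was lower, Ch25h, which makes a hydroxylated cholesterol. Fabp4, Soat1 and Ch25h lost their calls without HLAB6 replicate 2 or B6B6 replicate 4, among others. Of 18 cell cycle genes 5 were lower and 0 higher (median log2 fold change -1.51), Tuba1b, Ccnb2, Nusap1, Tubb5 and Mki67, each losing its call without 1 or more mice, HLAB6 replicate 2 among them for all 5, and 1 was lower in cells with no UMI of the C1q list. Of the 5 markers only Mrc1 was not used in the split, and it did not pass the test (-0.77, SE 0.33, edgeR adjusted p = 0.19). As a description, Marco stood at 94.9 to 230 CPM in alveolar-list cells of B6B6 and at 12.1 to 32.1 CPM in those of HLAB6 mice, whereas Chil3 stood at 5913 to 10063 and at 1589 to 7142 CPM and overlapped.

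**Figure D3:**
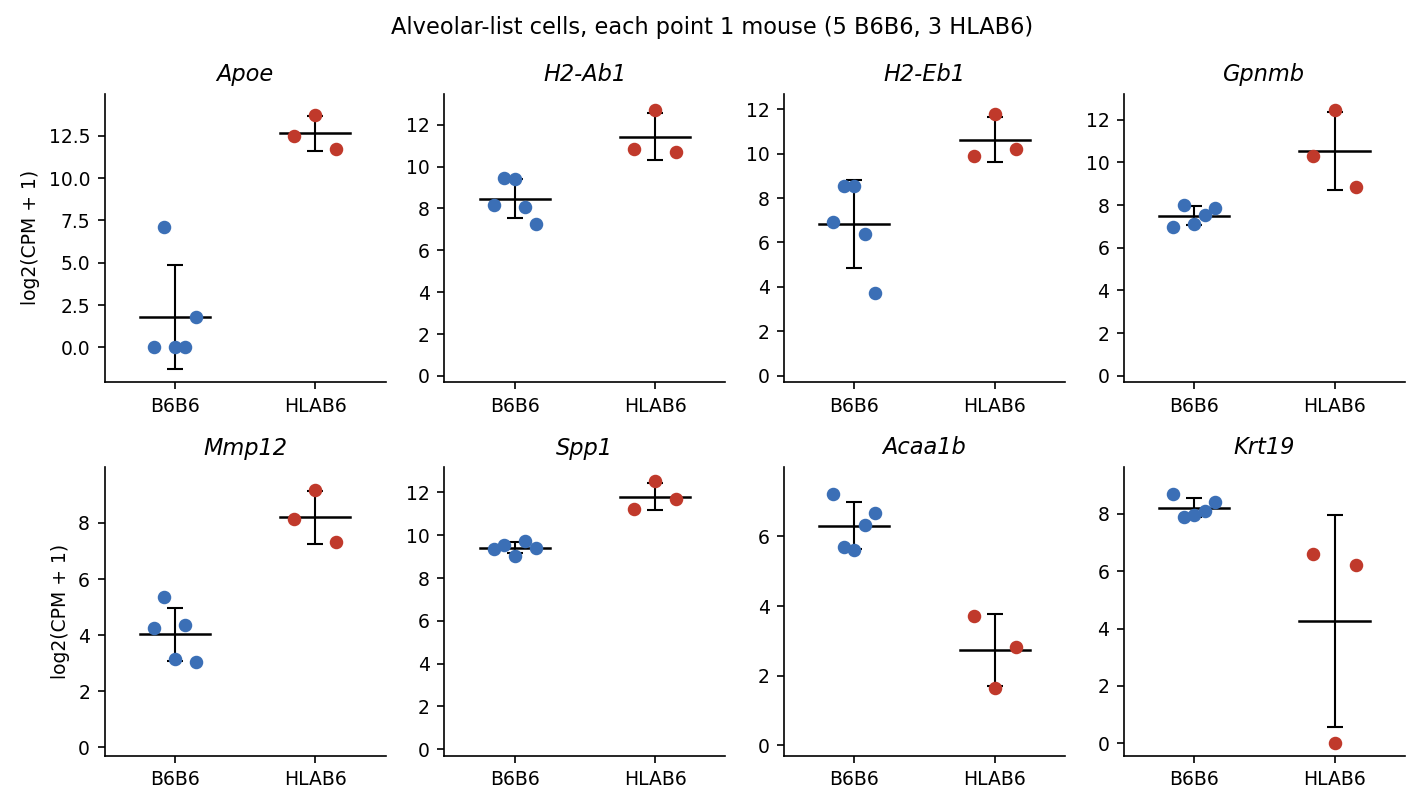
Each point is the level of a gene in the alveolar-list cells of 1 mouse (log2 of CPM + 1 on the y axis), with the mean as a line and the SD as a bar over 5 B6B6 and 3 HLAB6 mice. Apoe, H2-Ab1, H2-Eb1, Gpnmb, Mmp12 and Spp1 are higher and Acaa1b and Krt19 lower in HLAB6, and Krt19 is at 0 in HLAB6 replicate 2. The groups do not overlap in these 8 genes, which were picked from the called genes. For Apoe, Acaa1b and Krt19 the rule of naming required this, so it is no count over all genes.

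Markers of other cells were summed in alveolar-list cells, and of the sums given here that of the epithelial markers did not overlap between the groups, whereas the others did. The summed level of the 8 neutrophil markers was 34.4 to 201 CPM in B6B6 and 160 to 900 CPM in HLAB6 mice, that of the 8 epithelial markers 32.4 to 446 and 1.72 to 6.88 CPM, that of the 8 B and plasma cell markers 7.41 to 25.5 and 20.6 to 147 CPM, and that of the 8 T cell markers 10.2 to 183 and 17.6 to 213 CPM. The 5 red cell markers ran from 0 to 19724 CPM in B6B6 and from 10.3 to 2287 CPM in HLAB6 mice. The 13 dendritic cell markers summed to 416 to 603 and 136 to 449 CPM. The 12 monocyte markers, which include Chil3, summed to 6574 to 11464 and 1739 to 7814 CPM, and Ly6c2 of inflammatory monocytes was higher in HLAB6 (4.39, SE 1.00, edgeR adjusted p = 0.018), a call lost without HLAB6 replicate 2, B6B6 replicate 4 or B6B6 replicate 5 and not tested without B6B6 replicate 3. By edgeR S100a8 was also higher, 1 of 2 neutrophil markers tested, and Epcam was lower, 1 of 1 epithelial markers tested. In cells with no UMI of the C1q list 1 neutrophil marker was higher and 0 epithelial markers were lower. The part of such RNA in the results above was not tested, beyond the cells with no UMI of the C1q list.

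C1q-list cells differed between the groups in few genes, most of them lower in HLAB6, among them Timd4, Vsig4, Cd163, Fcna and Folr2. Of the interstitial macrophage list 3 of 9 tested genes were lower (Cd163, Folr2 and Csf1r) and 6 did not pass. This comparison had 4 B6B6 mice, since B6B6 replicate 5 had 2 such cells, and 3 HLAB6 mice. The B6B6 sums held 11 to 99 cells and 321129 UMIs in all, the HLAB6 sums 52 to 356 cells and 3814876 UMIs. Of 1788 genes tested by edgeR 5 were higher (0.280%) and 21 lower (1.17%) in HLAB6, or 1.45% in all, with 223 genes at an unadjusted p under 0.05 and 59 called by DESeq2.

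Timd4, a receptor for phosphatidylserine on dying cells, is a known marker of self-renewing resident macrophages. It stood at 144, 141, 324 and 266 CPM in B6B6 replicates 1 to 4 and at 0 in the 3 HLAB6 mice. The 82 UMIs came from 17 of 181 B6B6 cells (those of replicate 5 included), and none was found in the 594 HLAB6 cells, where a count of 0 allows up to 0.786 CPM over the group. Timd4 was thus at least 325-fold lower in HLAB6 (edgeR adjusted p = 0.00096). Vsig4, the complement receptor CRIg, with 89 UMIs in B6B6 mice, was at least 352-fold lower (edgeR adjusted p = 0.014), and Cd163, the hemoglobin scavenger receptor, with 44 UMIs, at least 174-fold lower (edgeR adjusted p = 0.0011). Fcna, the lectin ficolin A, stood at 288, 487, 1011 and 3322 CPM in B6B6 and at 44.8, 4.72 and 13.1 CPM in HLAB6 mice (log2 fold change -5.98, SE 1.06, edgeR adjusted p = 0.027). None of these 4 genes overlapped between the groups, as the rule that named them required.

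Folr2, a folate receptor of interstitial macrophages, fell by 4.13 (SE 0.78), C4b, a complement component, by 4.38 (SE 0.63), the monocyte chemokine Ccl7 by 4.64 (SE 0.71) and its relative Ccl2 by 3.11 (SE 0.51), on the log2 scale, with edgeR adjusted p = 0.032, 0.014, 0.014 and 0.015. Csf1r, the receptor of the growth factor CSF1, was lower in every HLAB6 mouse, at 242 to 396 CPM against 665 to 1007 CPM (-1.30, SE 0.26, edgeR adjusted p = 0.041), and its call was lost whichever mouse was left out. The 5 higher genes were Cd300lf, Ptms, Hvcn1, Sirpb1c and Hebp1, with log2 fold changes of 2.43, 1.80, 1.79, 1.72 and 1.62. Each of the 5 lost its call without B6B6 replicate 3 or HLAB6 replicate 2, among others. Timd4 and C4b kept theirs whichever mouse was left out, whereas Fcna lost it without B6B6 replicate 3, HLAB6 replicate 2 or HLAB6 replicate 3, Folr2 without any of these or B6B6 replicates 1 and 4, Ccl2 without B6B6 replicates 2 or 4 or HLAB6 replicates 2 or 3, and Ccl7 and Vsig4 without HLAB6 replicate 2. Cd163 could not be tested without B6B6 replicate 1, 2 or 3, nor Vsig4 without B6B6 replicate 1, 3 or 4, and neither was tested with the shared cells reduced.

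The shared cells weigh most on these cells. With all of them left out, 3 B6B6 mice remained, 1390 genes could be tested and 1 passed, Spp1 (higher, edgeR adjusted p = 0.011), which had not passed over all C1q-list cells (0.91). With the deepest cell kept, 31 genes were higher and 42 lower. Timd4 (at least 403-fold, edgeR adjusted p = 0.0005), Fcna (log2 fold change -6.36, 0.0078), C4b (-4.82, 0.0040) and Ccl7 (-5.22, 0.017) were still lower there, and Spp1 (7.08, 0.0036), Trem2 (1.77, 0.031) and Gpnmb (4.43, 0.030) were then higher by edgeR. Gpnmb over all C1q-list cells stood at 2049 and 1556 CPM in B6B6 replicates 1 and 2, whose C1q-list cells were mostly shared, and at 6.61 and 323 CPM in replicates 3 and 4. Igkc of plasma cells, also used in the removal of free RNA, had 0 UMIs in the B6B6 and 1487 UMIs in the HLAB6 C1q-list cells of the mice compared, and the part of such RNA was not tested.

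**Figure D4:**
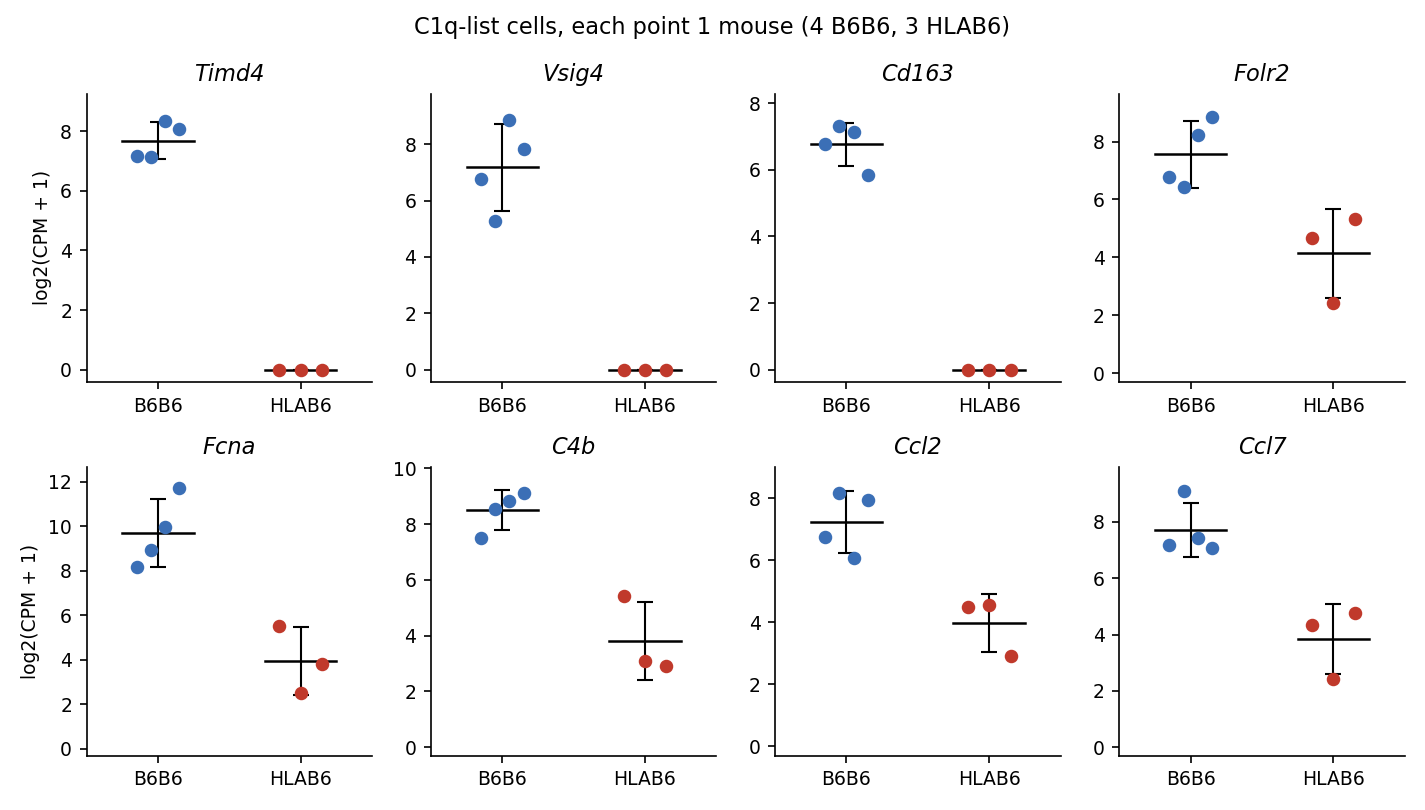
Each point is the level of a gene in the C1q-list cells of 1 mouse (log2 of CPM + 1 on the y axis), with the mean as a line and the SD as a bar over 4 B6B6 and 3 HLAB6 mice. All 8 genes are lower in HLAB6 without overlap, which the rule of naming required of all but Folr2 and Ccl2. Timd4, Vsig4 and Cd163 are at 0 in each HLAB6 mouse.

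MHC class II genes were at a high level in C1q-list cells of both groups and did not pass the test there. H2-Ab1 stood at 16898, 14657, 7273 and 8164 CPM in B6B6 replicates 1 to 4 and at 11717, 12167 and 4146 CPM in HLAB6 mice, which overlapped (log2 fold change -0.34, SE 0.41, edgeR adjusted p = 0.83). Only 1.45% of all genes were called in this fit, so counts of 0 in short lists are near the background. Of 7 tested class II genes 0 passed (median -0.27), of 16 class I genes 0 (0.30), of 7 interferon-γ genes 0 (0.34), of 6 type I interferon genes 0 (-0.33) and of 16 lipid- and scar-associated genes 0 (0.46), against a median of 0.02 over all tested genes. At an unadjusted p under 0.05 edgeR had 0, 0, 0, 1 and 5 genes of these lists, and DESeq2 called 0, 0, 0, 1 and 2. With the deepest cell of a shared barcode kept, 4 of the lipid- and scar-associated genes were higher.

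**Figure D5:**
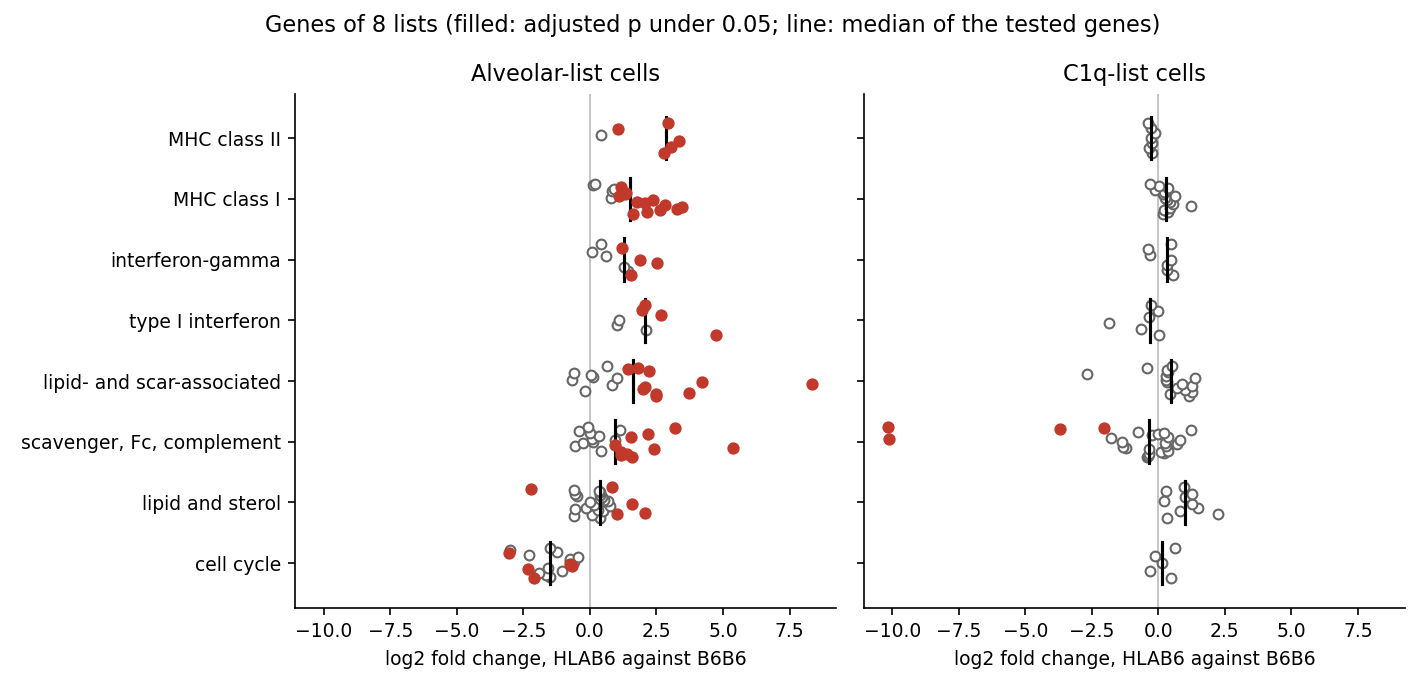
Each point is a tested gene of 1 of 8 lists, with its log2 fold change between HLAB6 and B6B6 on the x axis, for alveolar-list cells on the left and C1q-list cells on the right. Filled points have an edgeR adjusted p under 0.05 and lines are medians of the tested genes, which for MHC class II lie at 2.86 in alveolar-list and -0.27 in C1q-list cells.

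Whether the groups differed more in one kind of cell was tested as an interaction in the 7 mice that had enough cells of both kinds, each mouse being a block. Of 5086 genes 44 (0.865%) had a higher and 129 (2.54%) a lower group difference in C1q-list than in alveolar-list cells, 3.40% in all by edgeR. Of the MHC class II list 4 of 7 were lower, H2-Ab1 by 2.88 (SE 0.43), Cd74 by 2.75 (SE 0.36), H2-Aa by 2.66 (SE 0.42) and H2-Eb1 by 3.25 (SE 0.52), with edgeR adjusted p = 0.00078, 0.00020, 0.0013 and 0.0013, and these held without any 1 mouse. Apoe differed by -8.97 (SE 1.25, edgeR adjusted p = 0.00039), Mmp12 by -3.57 (SE 0.71, 0.0074) and C3ar1 by -5.63 (SE 0.65, 4.8e-05). Of the type I interferon list 8 of 12 had a lower group difference in C1q-list cells. In B6B6 mice H2-Ab1 was on average at 477 CPM in alveolar-list and 11558 CPM in C1q-list cells, and in HLAB6 mice at 3142 and 9909 CPM, so the gap between the kinds was narrower in the rejecting grafts. The median of this interaction over all genes was 0.16 on the log2 scale (0.08 with DESeq2's size factors), and the values above are not corrected for it. The count of 173 fell to 57 without HLAB6 replicate 2, to 98 without B6B6 replicate 2 and to 109 with the deepest cell of a shared barcode kept.

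The same test was run against the 1968 cells labelled monocyte, over all cells labelled alveolar macrophage. Of 6382 genes 104 (1.63%) had a higher and 49 (0.768%) a lower group difference in alveolar macrophages, or 2.40% in all by edgeR. Of the MHC class II list 5 of 8 tested genes had the higher difference and 0 the lower: H2-Aa by 3.26 (SE 0.62, edgeR adjusted p = 0.017), H2-DMb1 by 1.53 (SE 0.27, 0.012), H2-Ab1 by 3.25 (SE 0.69, 0.023), Cd74 by 3.25 (SE 0.74, 0.031) and H2-Eb1 by 3.72 (SE 0.85, 0.033). H2-Ab1 in monocytes stood at 1886 to 4089 CPM in B6B6 and at 581 to 4293 CPM in HLAB6 mice, which overlapped. The calls of H2-Ab1, Cd74 and H2-Eb1 were lost without B6B6 replicate 1 or any 1 HLAB6 mouse, Cd74 and H2-Eb1 also without B6B6 replicate 4, and those of H2-Aa and H2-DMb1 were kept. Trem2 (2.46, SE 0.35, edgeR adjusted p = 0.0029), Ctsb (1.48, SE 0.24, 0.0088) and Lgmn (1.63, SE 0.30, 0.013) of the lipid- and scar-associated list also had the higher difference in alveolar macrophages, and Chil3 (-1.92, SE 0.29, 0.0047) and Cd9 (-1.65, SE 0.23, 0.0026) the lower. This test spans both kinds of labelled cell and so includes their change in mix. The count was 39 in place of 153 without HLAB6 replicate 2, 74 without B6B6 replicate 4 and 90 without B6B6 replicate 1, and 254 with the deepest cell kept.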

How the data were processed

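Droplet libraries of 8 grafts (5 B6B6, 3 HLAB6) were sequenced, 1 per mouse. The deposited counts are whole UMI counts of 17921 genes in 20778 cells, which the authors made with Cell Ranger on mm10 (version not stated). They state that shallow barcodes and rare genes were dropped and that SoupX removed free RNA. Labels of cells were the authors', from Seurat clustering. The mouse of a cell is the one the table of cells gives, in which HLAB6 mice are numbered 1 to 3, and all columns were used. The labelled cells, the gene lists and the split were chosen with earlier results of these data known.

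UMIs were summed per mouse over labelled, alveolar-list or C1q-list cells, for mice with at least 10 such cells, and tested with edgeR 4.0.16 in R 4.3.3 (TMM, filterByExpr with a minimum count of 10, quasi-likelihood F test, Benjamini-Hochberg over all genes tested, threshold 0.05). CPM per mouse are scaled by TMM, except in values pooled over mice and in summed marker levels, and in the interaction fits TMM was run over both kinds of cell. Sums held 303344 to 3672924 UMIs per mouse over all labelled cells, and a group at 0 was set to a floor of 3 counts. Such floors cover counting error only. The SE given with an edgeR value is the absolute log2 fold change divided by the square root of the F statistic. It is not a separate estimate of the fit. Shares were compared by two-sided exact permutation over all 56 splits of the mice. Shares of cells with a UMI were also computed as mean values over draws without replacement at 1000 UMIs per cell, shallower cells left out. Doublets were called with Scrublet (rate set to 0.06) and kept. Promoters are from a RefSeq table on GRCm38.p6 and coordinates from GENCODE vM21.

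On simulated sums with 200 genes changed 4-fold the fits recovered 94.5% (labelled cells), 94.0% (alveolar-list), 92.0% (C1q-list), 49.5% (between the kinds) and 72.5% (against monocytes) of them. Of the calls made between the kinds 7.48% were false, and in the other fits at most 3.59%. The simulation gave each gene the spread of the fitted trend, held no shared cells and used only genes that passed the filter. Recovery in the real data can therefore differ and was not tested.

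Genes were named by rule: the 8 largest rises and the 8 largest falls past the threshold without overlap and with a mean of at least 50 CPM (4 each in the interaction tests), the 5 markers, and up to 4 members of each list with the smallest p. Predicted genes were not named, and single values of some list members are not reported here. Genes outside this rule were chosen after their values were seen, among them H2-Eb1, Gpnmb and Ctsb in alveolar-list cells, Ly6c2, Igkc and all further members of the lists. Alternatives were DESeq2 1.42.0, its size factors, no filter, leaving out each mouse, shared barcodes, doublets, cells under 500 UMIs, equal cell numbers, the replicate number or the linked libraries as a block, and other borders of the split (1 UMI, or 3 times the other list). Chosen after seeing the data were keeping the deepest cell of a shared barcode, leaving out alveolar-list cells with a UMI of the C1q list, the shares of the kinds among all cells and the values within linked libraries.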

Additional observations from a re-analysis of the deposited data

Results flagged for a closer look

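Within the 5 B6B6 mice (4 for C1q-list cells) a single mouse stood apart by Dixon's test in 9 of 50 groups tested. For normally distributed values chance alone gives about 1 in 20. In all labelled cells the 9 included Mmp14 (30.9 CPM) and Cpne5 (20.6 CPM) in B6B6 replicate 2, Serpinb1a (209.8 CPM) in B6B6 replicate 5 and Marco (102 CPM) in B6B6 replicate 1. In alveolar-list cells they were Apoe (136 CPM) in B6B6 replicate 2, Ass1 (2.27 CPM) in B6B6 replicate 4, Lat2 (0 CPM) in B6B6 replicate 1 and Cxcl16 (36.9 CPM) in B6B6 replicate 3. In C1q-list cells it was Ccl7 (553 CPM) in B6B6 replicate 2. In each of these genes every HLAB6 mouse lay outside the range of the B6B6 mice. The rule that named the genes required this, so it is no separate result. In alveolar-list cells Apoe and Ass1 had a B6B6 median of 0 CPM, and Lat2 and Cxcl16 one of 2.42 CPM. The rate of 1 in 20 need not hold for values so near 0, so 9 of 50 is not read as an excess.

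The group difference (HLAB6 against B6B6) differed between kinds of cell in the following genes by edgeR's interaction test, given as the log2 difference in C1q-list minus alveolar-list cells: Phgdh 7.84, Galnt6 7.63, Scgb1a1 5.01 and Cd2 4.65 were higher, and Cd163 -12.96, Apoe -8.97, Cdkn2a -8.51 and Fcna -7.82 were lower. Phgdh (serine synthesis) and Galnt6 (mucin-type glycosylation) were at 0 in the C1q-list cells of the B6B6 mice, so these fitted values depend on the prior count. The same holds for Cd163, at 0 in C1q-list cells of HLAB6 and in alveolar-list cells of B6B6 mice, and for Fcna, at 0 to 3.8 CPM in alveolar-list cells. Scgb1a1, a club cell gene used by the authors in removing free RNA, ran from 0 to 365 CPM in alveolar-list cells of B6B6 mice. Cdkn2a, a cell cycle inhibitor, was at 0 to 222 CPM in C1q-list cells of B6B6 and at most 0.775 CPM in those of HLAB6 mice, and Cd2 at 161 to 194 CPM in alveolar-list cells of B6B6 and 3.8 to 87.8 CPM in those of HLAB6 mice. Phgdh, Galnt6, Scgb1a1 and Cd2 lost the call without B6B6 replicate 2, among others, and Cd163 without HLAB6 replicate 2.

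Between all labelled alveolar macrophages and cells labelled monocyte the group difference was higher in alveolar macrophages for Sorl1 (4.28), Slamf7 (3.82), H2-Eb1 (3.72) and Traf1 (3.70), and lower for Mcam (-8.63), Ccl5 (-7.29), Wfdc21 (-5.97) and Serpinb1a (-4.50). Mcam and Ccl5 were at 0 in the monocytes of every B6B6 mouse, so their fitted values are no bound. Wfdc21 stood at 682 to 1374 CPM in labelled cells of B6B6 and 3.90 to 413 CPM in those of HLAB6 mice, and Slamf7 at 3.49 to 22.6 and 41.9 to 200 CPM. Sorl1, H2-Eb1, Traf1 and Ccl5 lost the call without HLAB6 replicate 2.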

How the results depend on the processing

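Cell number limited the C1q-list comparison (11 to 99 cells per B6B6 mouse compared), and 3 HLAB6 mice limit every p. Without filter on low counts 1083 genes were called over the label, 760 in alveolar-list, 217 in C1q-list cells and 410 against monocytes. With shared barcodes left out the counts were 1116 over the label, 1 in C1q-list cells, 110 between the kinds and 358 against monocytes, and C1q-list cells as a share of all cells differed by 4.34 points. With the deepest cell kept they were 73 in C1q-list cells, 109 between the kinds and 254 against monocytes, with 5.28 points. Equal cell numbers gave 421, 132 and 11 genes over the label, in alveolar-list and in C1q-list cells, linked libraries as a block gave 1253 over the label, DESeq2 59 in C1q-list cells, and alveolar-list cells with no UMI of the C1q list 129. The cause of these changes was not tested, beyond the fewer cells or genes that some of them leave.

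Replicate numbers do not pair the mice: the deviations of same-numbered mice correlated between -0.25 and 0.32 over the label, -0.02 and 0.13 in alveolar-list and -0.07 and 0.18 in C1q-list cells. With the replicate block 283, 113 and 12 genes were called.

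Leaving out 1 mouse gave 180 to 829 genes over the label, 172 to 501 in alveolar-list cells, 3 to 35 in C1q-list cells (14 without B6B6 replicate 1, 4 without replicate 3, 9 without replicate 4, 3 without HLAB6 replicate 2, 6 without replicate 3), 57 to 190 between the kinds and 39 to 167 against monocytes. It gave 26.1 to 40.7 points for the C1q share of labelled cells and -8.56 to -6.01 for alveolar-list cells among all cells, where p = 0.0571 or 0.0952 is the smallest an exact test can give. The share of all cells in the label differed by -6.41 to -1.86 points, that of C1q-list cells by 0.897 to 4.88, and median depth by -580 to 2543.5 UMIs, reversed without HLAB6 replicate 2 (-579.75). In C1q-list cells H2-DMa reversed with no filter (0.010) and without HLAB6 replicate 3 (range -0.485 to 0.014 with 1 mouse left out), and Ifngr2 without shared barcodes (-0.15). Of the values of single genes 3476 stayed on their side of the threshold with their sign, 564 lost and 41 gained a call.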
